A study of Danio rerio with 17 samples.

Results

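The 10 genes described here act in melanin synthesis and in the melanosome, the organelle in which melanin is made and stored: MITF, TYR, TYRP1, DCT, pmela, GPR143, GPNMB, OCA2, SLC45A2 and SLC24A5. They were chosen by name, across all groups of an RNA-seq study of cells sorted from zebrafish eyes. They matched 12 of the 31701 Ensembl gene IDs in the count table, because the symbol table lists 2 IDs as TYRP1 and 2 as MITF with no paralogue letter. Which of these IDs are tyrp1b and mitfa, the paralogues asked for, is not given in the sources used here, so both IDs of each pair are reported. Symbols are printed as that table lists them, some in the capitals of human genes.

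The study holds 17 libraries of polyadenylated RNA in 5 groups. Cancer_High and Cancer_Low (n = 4 each) are cells with high and low sox10 reporter signal from ocular tissue labelled as cancer, in fish 7.5 to 10.4 months old. PreC_High and PreC_Low (n = 3 each) are the same cell fractions from fish labelled pre-cancerous, 4.5 to 4.7 months old. Control_Low (n = 3) is the sox10-low fraction of fish 4.6 to 5.0 months old, and there is no sox10-high control group among the samples. Every fish carries the tg(sox10:RFP) reporter, a red fluorescent protein under the promoter of sox10, a transcription factor gene of neural crest cells and glia. Cancer and PreC fish are also homozygous for mutant alleles that include brca2 hg5, and Control fish carry the reporter alone. A tissue code in the labels ties each High library to the Low library of the same tissue. The labels do not say how many fish gave a library or whether replicates came from separate fish, so p-values measure only the spread between these samples.

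Library totals ran from 58711787 to 87244522 counts, with 20041 to 24179 genes detected. SOX10 followed the sort, at 748 to 1389 CPM in Cancer_High, 1329 to 1597 in PreC_High, 16.04 to 418 in Cancer_Low, 9.76 to 23.8 in PreC_Low and 11.2 to 13.4 in Control_Low. CPM is the count of a gene relative to the scaled total of its library. The brca2 gene was transcribed in all 17 libraries, at 6.06 to 24.1 CPM, and gene counts do not show the mutant base. Photoreceptor markers, a check on the ocular source, summed to 26.1 to 36.1 CPM in Cancer_High, 1111 to 1373 in PreC_High, 328 to 662 in Cancer_Low, 28210 to 59820 in PreC_Low and 16820 to 40590 in Control_Low. The deposited library names end in S and a number, called the library index here. The names do not say what this number stands for. All Cancer libraries carry library indexes 10 to 17 and the others 1 to 9. Libraries with indexes 1 to 9 held 632 to 2344 IDs with 3 to 20 counts, and those with 10 to 17 held 3361 to 4295. Stage, age and library index therefore cannot be told apart in any comparison of Cancer with PreC or Control. Against Control, the mutant genotype cannot be told apart from these either. High against Low and PreC_Low against Control_Low lie within 1 block of indexes.

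In vertebrates melanin is made by melanocytes (melanophores in fish), which come from the neural crest, and by the retinal pigment epithelium, which comes from the wall of the optic cup. PMEL protein builds the fibrils of the melanosome. Tyrosinase (TYR) then carries out the rate-limiting oxidation of tyrosine, TYRP1 and DCT act on later intermediates, and membrane transporters set the ions and pH of the organelle. In mammalian melanocytes the transcription factor MITF switches most of these genes on, and zebrafish without mitfa lack body melanophores. Zebrafish also have iridophores, neural crest cells that reflect light from purine crystals, and gpnmb and tfec, a relative of mitf, are transcribed in them as well. GPNMB is also known from mammalian macrophages. In bulk libraries such as these, more cells of a type and more RNA per cell cannot be told apart.

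The sox10-high cells held more RNA of several pigment genes than the sox10-low cells of the same stage. GPNMB, GPR143 and pmela passed the test in both stages, DCT in Cancer, and MITF ENSDARG00000003732 and both TYRP1 IDs in PreC. TYR, the gene of the rate-limiting enzyme, stayed at or near 0 counts in most libraries of every group and passed no test. Among sox10-low cells, GPNMB, GPR143 and MITF ENSDARG00000003732 were higher in Cancer_Low than in Control_Low, while the genes of the pigment enzymes and the PMEL fibril were not called. In the edgeR fit over all libraries no member was called lower in a comparison of 2 groups.

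In Cancer_High against Cancer_Low, 4 of the 12 IDs were called higher and 0 lower, at an adjusted p under 0.05 in a fit over all genes. Of all 23299 IDs tested, 28.4% were called in that comparison, with 10.5% of the IDs tested called higher and 17.9% lower. The median log2 fold change of the 12 IDs was 1.95, beside 0.07 over all IDs tested. In PreC_High against PreC_Low, 6 of the 12 IDs were called higher and 0 lower, where 31.3% of all IDs tested were called, 9.28% higher and 22.0% lower. The median of the 12 IDs there was 2.79, beside -0.15 over all IDs tested. All 12 IDs passed the filter on low counts.

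**Figure D1:**
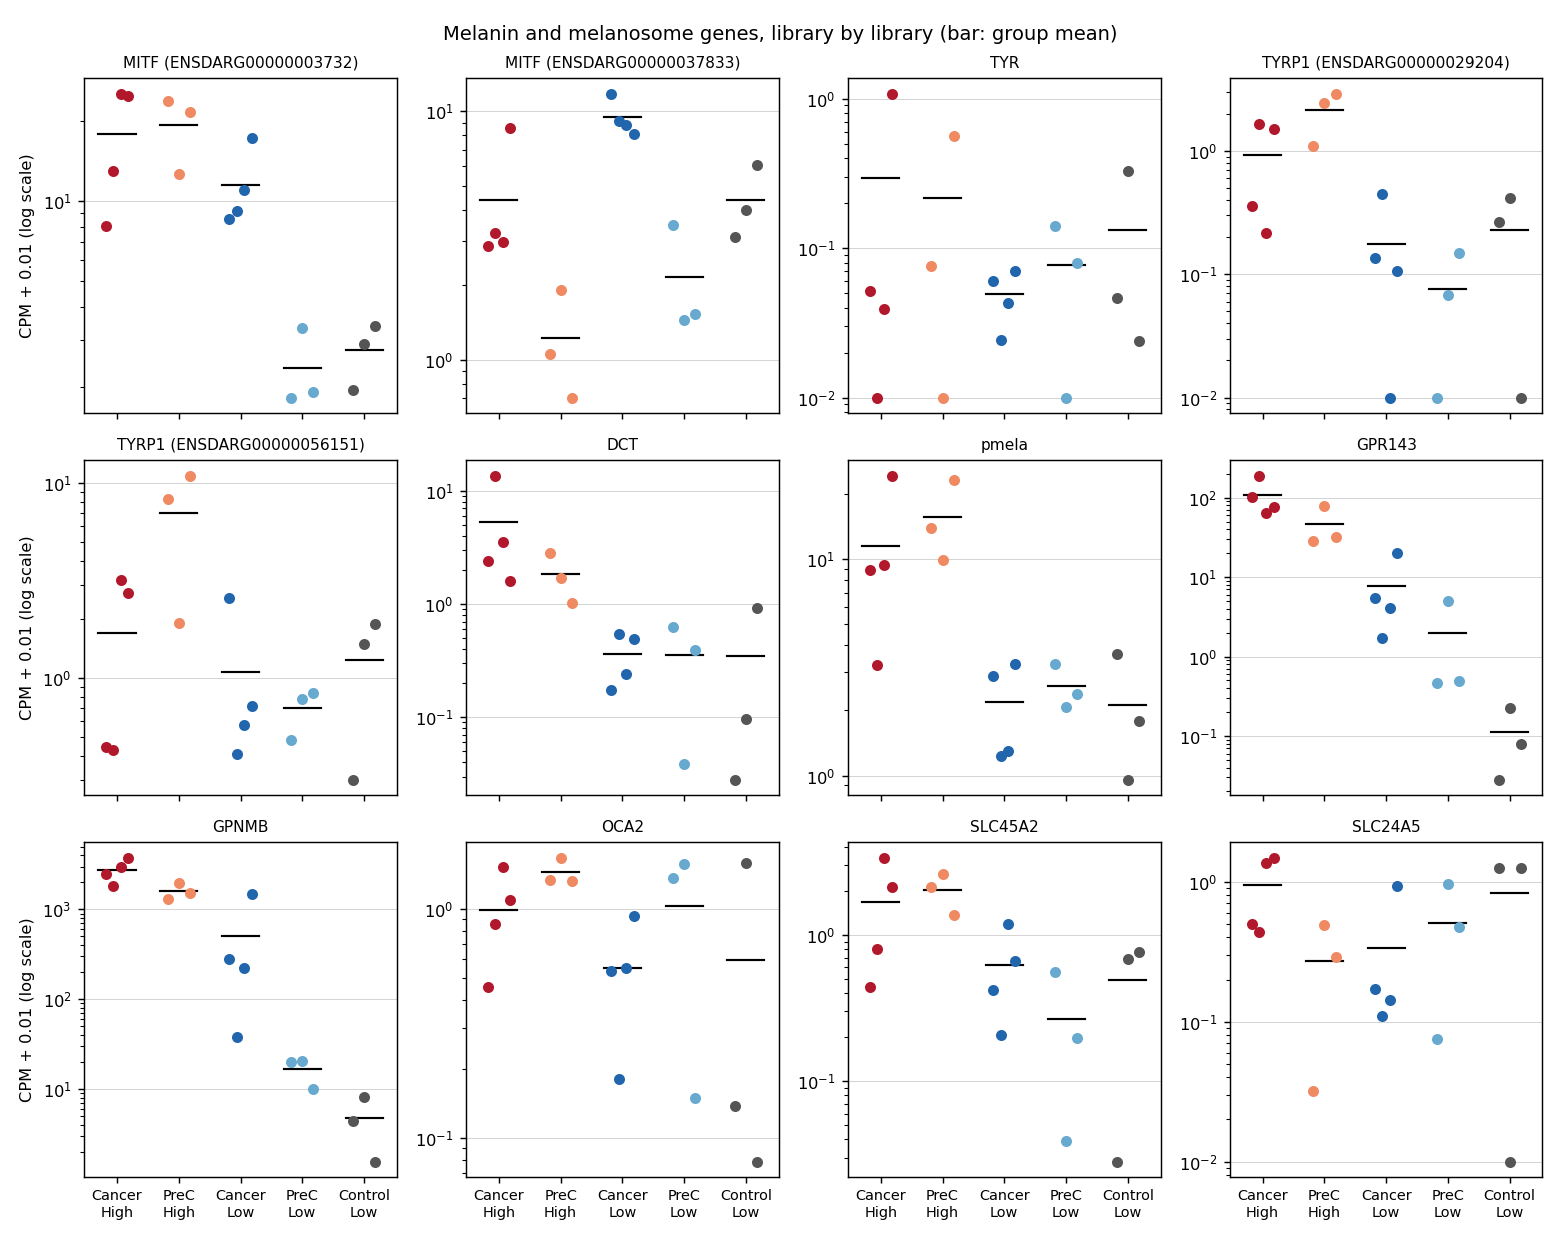
CPM of each of the 12 IDs in every library, 1 point per library on a log axis after 0.01 CPM was added, with a bar at the group mean. GPNMB and GPR143 are higher in every PreC_High library than in any PreC_Low library, and the highest Cancer_Low point of GPNMB, 1504 CPM, is the library of replicate 4.

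GPNMB, a glycoprotein of melanosomes and lysosomes, had 2508, 1821, 2964 and 3778 CPM in Cancer_High replicates 1 to 4 and 1309, 1955 and 1517 CPM in PreC_High replicates 1 to 3. In the sox10-low cells it had 278, 38.02, 220 and 1504 CPM in Cancer_Low, 20.1, 20.3 and 10.06 CPM in PreC_Low and 4.41, 8.05 and 1.54 CPM in Control_Low. The High ranges lay above the Low range of the same stage, the 4 Cancer_Low libraries spread over a 39.6-fold range, and PreC_Low lay above Control_Low without overlap. GPNMB was higher in PreC_High than in PreC_Low, by 6.56 ± 1.04 on the log2 scale (SE, adjusted p = 0.000216). It was also higher in Cancer_High than in Cancer_Low, by 2.44 ± 0.75 (adjusted p = 0.0222). Cancer_Low replicate 4 sets the size of the Cancer difference, which is 3.95 without it (adjusted p = 0.000207). That call is lost without Cancer_Low replicate 1 (adjusted p = 0.0684) or replicate 3 (adjusted p = 0.0642), and with only the compared groups in the fit (adjusted p = 0.0629).

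GPR143, a G protein-coupled receptor of the melanosome membrane that is mutated in human ocular albinism, followed a like order. It had 103, 190.2, 64.7 and 76.6 CPM in Cancer_High and 28.8, 79.7 and 31.9 CPM in PreC_High. The sox10-low cells had 5.38, 1.70, 4.11 and 20.07 CPM in Cancer_Low, 0.459, 4.98 and 0.477 CPM in PreC_Low and 0.0182, 0.216 and 0.0686 CPM in Control_Low. High and Low did not overlap in either stage, and the 3 Control_Low libraries together held 21 counts of this gene, beside 423 in PreC_Low. The log2 fold change was 3.80 ± 0.88 in Cancer_High against Cancer_Low (adjusted p = 0.00415) and 4.57 ± 1.05 in PreC_High against PreC_Low (adjusted p = 0.00364). Without PreC_Low replicate 2, the highest of its group, the PreC difference is 6.64 (adjusted p = 0.00078), and without Cancer_Low replicate 4 the Cancer difference is 4.86 (adjusted p = 0.000661).

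pmela encodes a PMEL protein, whose fragments form the fibrils that melanin is laid down on. It had 8.90, 3.25, 9.36 and 24.3 CPM in Cancer_High and 13.96, 9.93 and 23.3 CPM in PreC_High. In the sox10-low cells it had 2.89, 1.22, 1.28 and 3.28 CPM in Cancer_Low, 3.28, 2.07 and 2.38 CPM in PreC_Low and 3.62, 0.948 and 1.78 CPM in Control_Low. The PreC ranges lay apart, the lowest Cancer_High library fell just below the highest Cancer_Low library, and the 3 Low groups overlapped one another. pmela was higher in Cancer_High than in Cancer_Low by 2.40 ± 0.60 on the log2 scale (adjusted p = 0.00683) and in PreC_High than in PreC_Low by 2.61 ± 0.69 (adjusted p = 0.00928). Without Cancer_High replicate 4 the Cancer difference is 1.73 (adjusted p = 0.0321).

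DCT, dopachrome tautomerase, had 2.38, 13.6, 3.51 and 1.58 CPM in Cancer_High and 2.78, 1.69 and 1.01 CPM in PreC_High. It had 0.163, 0.538, 0.233 and 0.482 CPM in Cancer_Low, 0.617, 0.0287 and 0.384 CPM in PreC_Low and 0.0182, 0.0862 and 0.906 CPM in Control_Low. Both High groups lay above the Low group of their stage, and the Cancer_High group was spread by replicate 2. DCT was higher in Cancer_High than in Cancer_Low by 3.89 ± 1.12 on the log2 scale (adjusted p = 0.0157), a call lost without Cancer_High replicate 2 (2.81, adjusted p = 0.0733) and without Cancer_Low replicate 1 (3.65, adjusted p = 0.051). In PreC the difference was 2.41 ± 1.21 (adjusted p = 0.14), with a 95% interval of -0.15 to 4.96, and was not called.

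The TYRP1 IDs, relatives of tyrosinase that act late in eumelanin synthesis, were called in PreC but not in Cancer. TYRP1 ENSDARG00000029204 had 0.348, 1.64, 0.206 and 1.51 CPM in Cancer_High and 1.09, 2.46 and 2.90 CPM in PreC_High, against 0.125, 0.439, 0 and 0.0965 CPM in Cancer_Low, 0, 0.0575 and 0.140 CPM in PreC_Low and 0.255, 0.402 and 0 CPM in Control_Low. PreC_High lay wholly above PreC_Low, whose 3 libraries held 16 counts in all, and the Cancer fractions overlapped. The log2 fold change was 4.99 ± 1.77 in PreC_High against PreC_Low (adjusted p = 0.0406), and the call is lost without any of PreC_High replicates 2 and 3 and PreC_Low replicates 1 and 2 (adjusted p of 0.0663 to 0.11). In Cancer_High against Cancer_Low it was 2.48 ± 1.36 (adjusted p = 0.188).

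TYRP1 ENSDARG00000056151 had 0.431, 0.416, 3.17 and 2.73 CPM in Cancer_High and 8.26, 1.90 and 10.9 CPM in PreC_High. It had 2.58, 0.3965, 0.565 and 0.711 CPM in Cancer_Low, 0.472, 0.7755 and 0.826 CPM in PreC_Low and 0.2915, 1.49 and 1.90 CPM in Control_Low. The Cancer fractions overlapped, with 2 of the 4 Cancer_High libraries as low as the Low libraries and Cancer_Low replicate 1 above them, while the PreC fractions lay apart. The log2 fold change was 3.34 ± 1.05 in PreC_High against PreC_Low (adjusted p = 0.0231) and 0.67 ± 0.84 in Cancer_High against Cancer_Low (adjusted p = 0.592). The PreC call is lost with the tissue as a block (3.10, adjusted p = 0.0582) and without PreC_High replicate 3 (adjusted p = 0.0691), PreC_Low replicate 1 (adjusted p = 0.0831) or PreC_Low replicate 2 (adjusted p = 0.0606).

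TYR itself was close to the limit of detection. It had 3, 0, 2 and 71 counts in Cancer_High, 6, 0 and 40 in PreC_High, 4, 1, 3 and 5 in Cancer_Low, 10, 0 and 6 in PreC_Low and 2, 22 and 1 in Control_Low. Cancer_High replicate 4, at 1.07 CPM, and PreC_High replicate 3, at 0.556 CPM, were the highest libraries, and the ranges of all groups overlapped. A count of 0 allows up to 0.0416 CPM in Cancer_High replicate 2, 0.0361 in PreC_High replicate 2 and 0.0431 in PreC_Low replicate 2, taking 3 counts as the limit, which covers counting error only. That limit takes single counts as independent. Even numbers made up 65.9% of gene counts from 20 to 100 in PreC_High replicate 2 and 77.8% in PreC_Low replicate 2, so it may be too low there. The log2 fold change was 2.80 ± 1.77 in Cancer_High against Cancer_Low (adjusted p = 0.255, 95% interval -0.95 to 6.54) and 1.60 ± 1.96 in PreC_High against PreC_Low (adjusted p = 0.563, 95% interval -2.54 to 5.73), so the intervals take in large differences. In each High group 1 library held most of the counts. The sign in Cancer rests on Cancer_High replicate 4, without which the value is -0.70 (adjusted p = 0.806).

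Of the transporters, SLC45A2, which raises melanosome pH and is mutated in a form of human albinism, came nearest to the threshold. It had 0.431, 0.791, 3.36 and 2.125 CPM in Cancer_High and 2.11, 2.61 and 1.36 CPM in PreC_High, against 0.413, 0.198, 1.185 and 0.651 CPM in Cancer_Low, 0.551, 0.0287 and 0.186 CPM in PreC_Low and 0.0182, 0.675 and 0.755 CPM in Control_Low. The PreC fractions lay apart and the Cancer fractions overlapped. The log2 fold change was 2.98 ± 1.23 in PreC_High against PreC_Low (adjusted p = 0.0734) and 1.45 ± 1.0 in Cancer_High against Cancer_Low (adjusted p = 0.299). With the tissue as a block the PreC difference is called (3.48, adjusted p = 0.0432), as it is by DESeq2 (3.01, adjusted p = 0.0161).

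OCA2, a melanosome membrane protein linked to its chloride current, ranged from 0.445 to 1.51 CPM in Cancer_High, 1.31 to 1.66 in PreC_High, 0.170 to 0.916 in Cancer_Low, 0.140 to 1.55 in PreC_Low and 0.0686 to 1.57 in Control_Low. Every one of these ranges overlapped that of the other fraction of its stage, and no comparison was called. SLC24A5, an ion exchanger whose loss gives the golden zebrafish its pale stripes, ranged from 0.430 to 1.48 CPM in Cancer_High, 0.0221 to 0.481 in PreC_High, 0.0991 to 0.916 in Cancer_Low, 0.0656 to 0.948 in PreC_Low and 0 to 1.24 in Control_Low. It was higher in the High fraction in 4 of 4 Cancer tissues and in 0 of 3 PreC tissues. The 2 differences, 1.51 ± 1.28 in Cancer (adjusted p = 0.409) and -0.92 ± 1.46 in PreC (adjusted p = 0.667), did not pass a test against each other either (interaction 2.42 ± 1.95, adjusted p = 0.57).

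**Figure D2:**
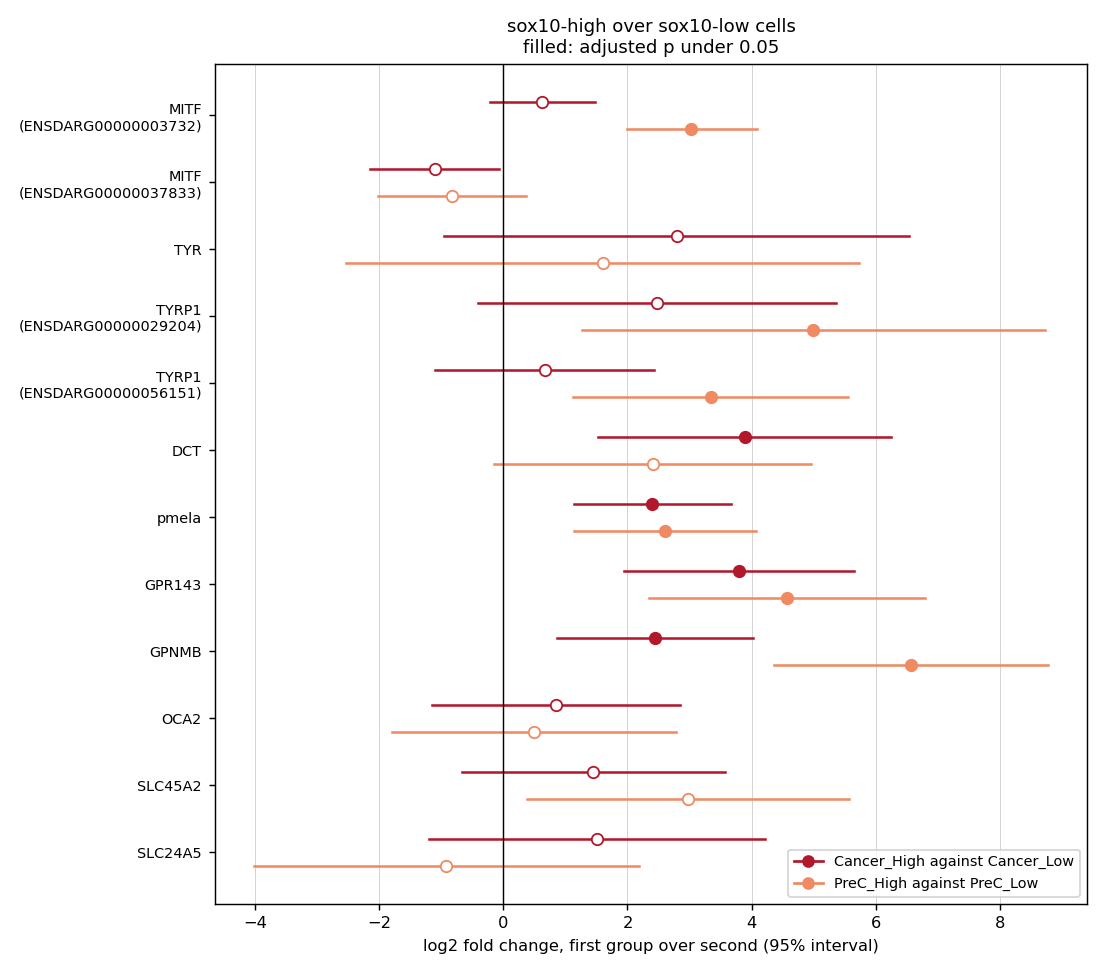
Log2 fold changes of the 12 IDs in sox10-high over sox10-low cells, with 95% intervals and filled points where the adjusted p is under 0.05. The 4 filled Cancer points are DCT, pmela, GPR143 and GPNMB, and the 6 filled PreC points are MITF ENSDARG00000003732, both TYRP1 IDs, pmela, GPR143 and GPNMB.

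The MITF IDs, for transcription factors that in melanocytes act on the promoters of the pigment enzyme genes, differed from each other in pattern. MITF ENSDARG00000003732 had 8.08, 13, 25.3 and 24.8 CPM in Cancer_High and 23.7, 12.6 and 21.6 CPM in PreC_High, against 8.54, 9.18, 11.03 and 17.2 CPM in Cancer_Low, 1.82, 3.35 and 1.91 CPM in PreC_Low and 1.95, 2.90 and 3.38 CPM in Control_Low. PreC_High lay far above PreC_Low, the Cancer fractions overlapped, and all 4 Cancer_Low libraries lay above every PreC_Low and Control_Low library. The log2 fold change was 3.03 ± 0.50 in PreC_High against PreC_Low (adjusted p = 0.00027) and 0.63 ± 0.40 in Cancer_High against Cancer_Low (adjusted p = 0.253).

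The test of that difference, the log2 fold change in Cancer less that in PreC, gave -2.40 ± 0.62 for MITF ENSDARG00000003732 (adjusted p = 0.0408). It was the 1 call among the 12 IDs in a test that called 3.4% of all IDs tested, 2.36% with a higher and 1.04% with a lower fold in Cancer. It kept its sign in each of 21 alternatives and stayed called in 9 of them, and in the other 12 the adjusted p was 0.0519 to 0.109. It was lost without any 1 of PreC_High replicates 1 and 3, PreC_Low replicates 1 and 3, Cancer_High replicates 1 and 2 and Cancer_Low replicates 1, 3 and 4. GPNMB gave -4.12 ± 1.13 (adjusted p = 0.0537) and -2.61 without Cancer_Low replicate 4 (adjusted p = 0.0722). It was called by DESeq2 (-4.19, adjusted p = 0.00326) and without Cancer_Low replicate 2 (-4.51, adjusted p = 0.014). SOX10, the gene behind the sort, gave -3.46 ± 1.01 (adjusted p = 0.0686), and the part of the sort in these values was not tested.

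MITF ENSDARG00000037833 had 2.85, 3.22, 2.97 and 8.57 CPM in Cancer_High and 1.05, 1.90 and 0.695 CPM in PreC_High. In the sox10-low cells it had 11.8, 9.16, 8.76 and 8.10 CPM in Cancer_Low, 3.49, 1.44 and 1.52 CPM in PreC_Low and 3.12, 3.99 and 6.08 CPM in Control_Low. Cancer_Low was the highest group and lay above PreC_Low and Control_Low without overlap, and the High fraction of Cancer overlapped it through replicate 4 alone. The differences between fractions were -1.10 ± 0.49 in Cancer (adjusted p = 0.103) and -0.82 ± 0.57 in PreC (adjusted p = 0.285), on the log2 scale, and neither was called. The Cancer difference was called lower by DESeq2 (-1.18, adjusted p = 0.0353) and without Cancer_High replicate 4 (-1.65, adjusted p = 0.0232). It was the 1 member called in Cancer_High against PreC_High, by 1.86 ± 0.56 (adjusted p = 0.0425), where 10.1% of all IDs tested were called, 4.91% higher and 5.24% lower. That call is lost under RLE scaling (adjusted p = 0.0519) and with only the compared groups (adjusted p = 0.135), and without PreC_High replicate 1 (adjusted p = 0.132), PreC_High replicate 3 (adjusted p = 0.146) or Cancer_High replicate 4 (adjusted p = 0.123).

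The fractions of each tissue were also compared in pairs, without averaging. In all 7 tissues with both fractions, 6 of the 12 IDs had a higher CPM in the High fraction: GPNMB, GPR143, pmela, DCT, SLC45A2 and TYRP1 ENSDARG00000029204. Of these, SLC45A2 was called by edgeR in neither stage. MITF ENSDARG00000003732 and TYRP1 ENSDARG00000056151, both called in PreC, were lower in the High fraction of Cancer tissue 1, at ratios of 0.946 and 0.167. Of all 23299 IDs tested, 13.5% were higher in the High fraction of all 7 tissues. The High-over-Low ratio of GPNMB was 9.02, 47.9, 13.5 and 2.51 in Cancer tissues 1 to 4 and 65.1, 96.1 and 150.8 in PreC tissues 1 to 3. For GPR143 it was 19.2, 111.9, 15.7 and 3.82 in Cancer and 62.7, 16 and 66.9 in PreC. The ratio of GPNMB was higher in each PreC tissue than in any Cancer tissue, whereas those of GPR143 overlapped, and Cancer tissue 4 gave the lowest ratio of both genes. For pmela the ratios were 2.67 to 7.42 in Cancer and 4.26 to 9.77 in PreC, and for MITF ENSDARG00000003732 they were 0.946 to 2.29 in Cancer and 3.77 to 13.01 in PreC.

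**Figure D3:**
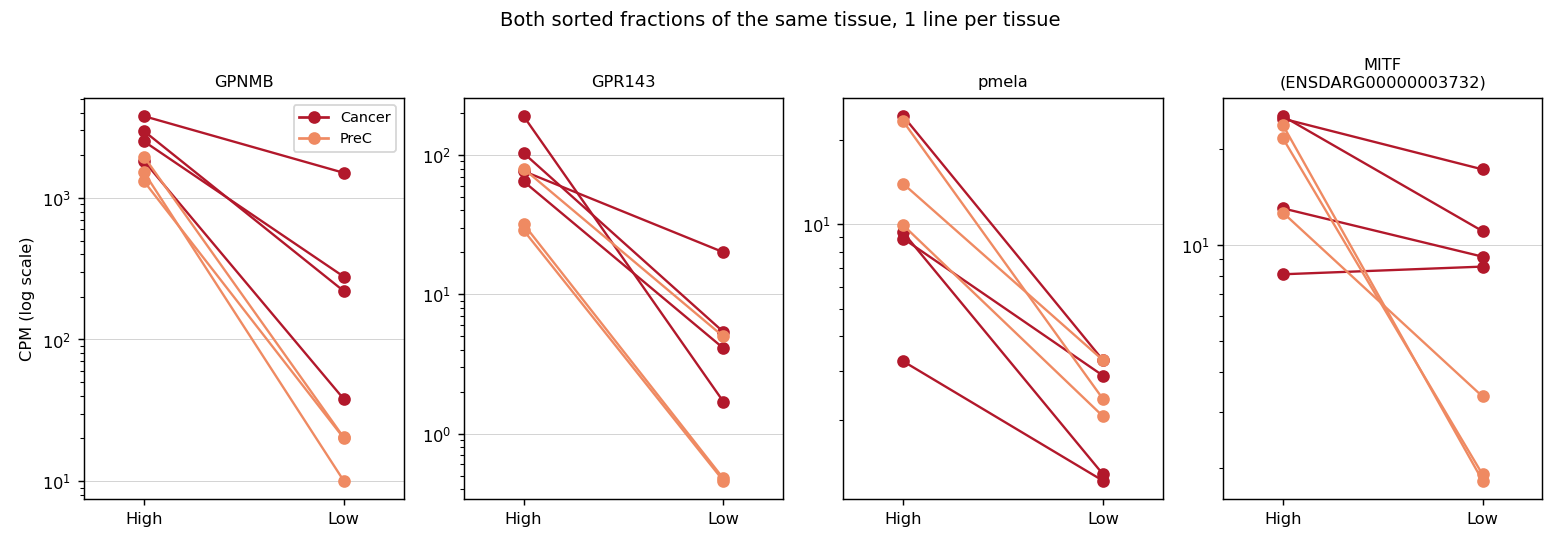
CPM of 4 members in the High and the Low fraction of each tissue on a log axis, with 1 line per tissue, 4 Cancer and 3 PreC. All lines of GPNMB, GPR143 and pmela fall to the Low side, and 1 Cancer line of MITF ENSDARG00000003732 does not.

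Among sox10-low cells, 3 of the 12 IDs were called higher in Cancer_Low than in Control_Low and 0 lower, in a comparison that called 32.8% of all IDs tested, 17.2% higher and 15.5% lower. The median log2 fold change of the 12 IDs was 0.05, beside 0.16 over all IDs tested. GPNMB was higher by 6.77 ± 1.04 (adjusted p = 0.000143), GPR143 by 6.22 ± 1.18 (adjusted p = 0.00076) and MITF ENSDARG00000003732 by 2.07 ± 0.46 (adjusted p = 0.00259). Their library values, given above, did not overlap between the groups. Without Cancer_Low replicate 4 the values are 5.26 for GPNMB (adjusted p = 5.18e-05), 5.15 for GPR143 (adjusted p = 0.00118) and 1.80 for MITF ENSDARG00000003732 (adjusted p = 0.00653). Without Control_Low replicate 2, the highest of its group for both genes, GPR143 is 7.37 (adjusted p = 0.00259) and GPNMB 7.43 (adjusted p = 0.000764). The log2 fold changes of pmela, DCT and TYR were 0.03 ± 0.62 (adjusted p = 0.974), 0.06 ± 1.09 (adjusted p = 0.974) and -1.59 ± 1.81 (adjusted p = 0.531). The 95% interval of pmela, -1.27 to 1.34, was the narrowest of these. SOX10, the gene behind the sort, was itself called higher in Cancer_Low than in Control_Low, by 3.51 ± 0.80 (adjusted p = 0.00297). Against PreC_Low, SOX10 was higher in Cancer_Low by 2.93 ± 0.77 (adjusted p = 0.0135). The part of the sort in the member values was not tested.

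Against PreC_Low, 3 of the 12 IDs were called higher in Cancer_Low and 0 lower, where 19.1% of all IDs tested were called, 7.95% higher and 11.1% lower. These were GPNMB, by 4.92 ± 0.95 (adjusted p = 0.00163), and both MITF IDs, by 2.28 ± 0.46 for ENSDARG00000003732 (adjusted p = 0.00239) and 2.13 ± 0.56 for ENSDARG00000037833 (adjusted p = 0.0132). Without Cancer_Low replicate 4 the GPNMB value is 3.41 (adjusted p = 0.00154), and without PreC_Low replicate 2 the call of MITF ENSDARG00000037833 is lost (1.92, adjusted p = 0.0632). GPR143 overlapped between the groups and was not called, at 1.99 ± 0.91 (adjusted p = 0.14), but is 4.06 without PreC_Low replicate 2 (adjusted p = 0.0136). This comparison shares the Cancer_Low libraries with the one against Control_Low.

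In PreC_Low against Control_Low, which compares mutant with control cells of like age and within 1 block of indexes, edgeR called 0 of the 12 IDs, with 2 at an unadjusted p under 0.05, and DESeq2 called 1. Over all IDs tested 1.07% were called, 0.777% higher and 0.296% lower. GPR143 stood nearest to the threshold, with 35, 347 and 41 counts in PreC_Low and 1, 15 and 5 in Control_Low, and the ranges lay apart. Its log2 fold change was 4.23 ± 1.12 (adjusted p = 0.075, 95% interval 1.86 to 6.59). It was called by DESeq2 (adjusted p = 0.00123) and without PreC_Low replicate 1 (adjusted p = 0.0451), and without PreC_Low replicate 2 it is 2.16 (adjusted p = 0.312). GPNMB was 1.85 ± 0.85 (adjusted p = 0.308), with groups that did not overlap. The median of the 12 IDs was -0.48, beside 0.09 over all IDs tested.

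**Figure D4:**
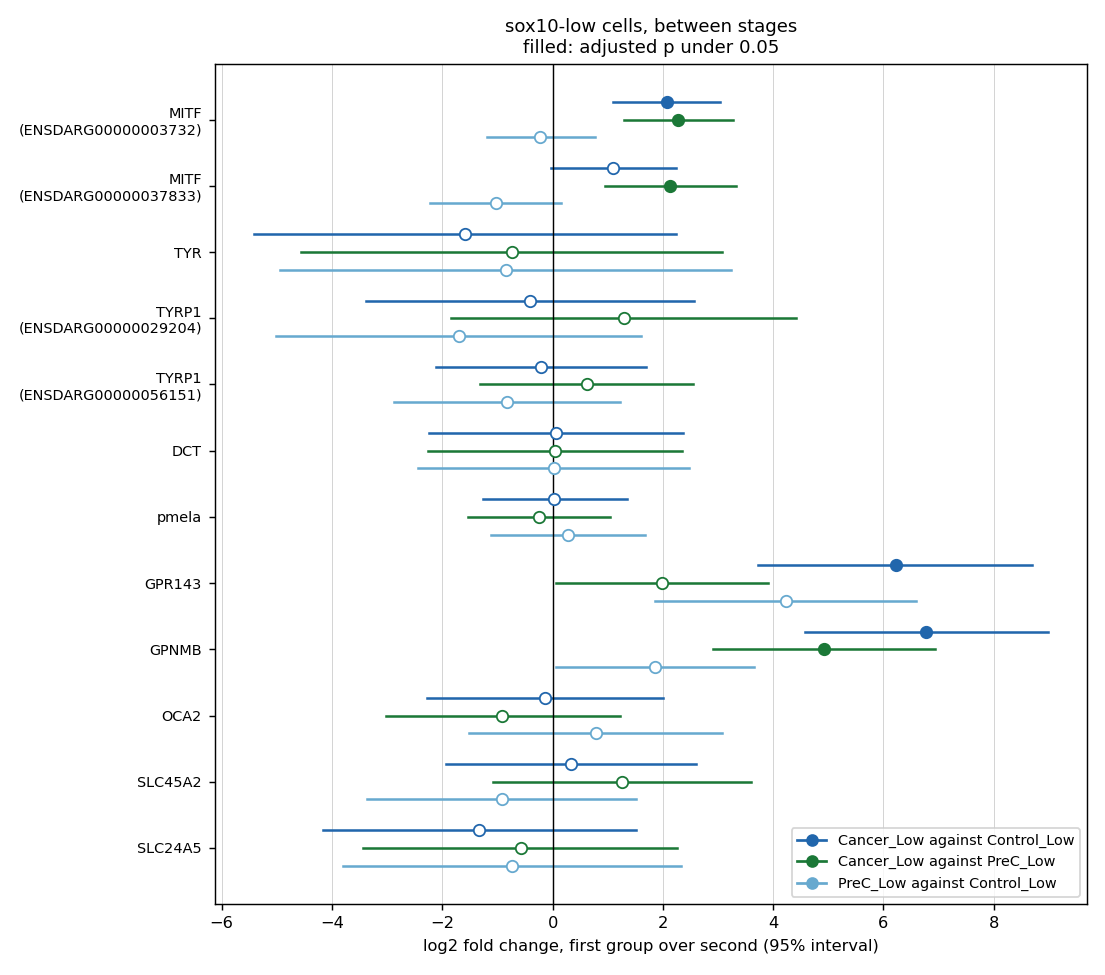
Log2 fold changes of the 12 IDs between stages in sox10-low cells, with 95% intervals and filled points where the adjusted p is under 0.05. GPNMB and MITF ENSDARG00000003732 are filled in both Cancer comparisons, GPR143 against Control_Low, MITF ENSDARG00000037833 against PreC_Low, and no point of PreC_Low against Control_Low is filled.

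The library of Cancer_Low replicate 4 was the highest of its group for 7 of the 12 IDs. Its SOX10 level, 418 CPM, was also above those of Cancer_Low replicates 1 to 3, at 69.1, 16.04 and 46.55 CPM. SOX10, GPNMB and GPR143 placed the 4 Cancer_Low libraries in the same order, replicate 4 above 1, 3 and 2. Across all 17 libraries the Pearson correlation of log2 CPM was 0.96 between GPR143 and GPNMB and 0.89 between GPNMB and MITF ENSDARG00000003732. Over the 66 pairs of the 12 IDs the median was 0.36, from -0.44 for pmela with MITF ENSDARG00000037833 upward, and 14 pairs were below 0. These are descriptions over libraries that share groups and, for counts near 0, depth.

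Genes of like pattern were ranked by the same measure, only among tested IDs with a symbol that no other ID has. The 5 of these most like GPNMB were pnp4a (r = 0.986), apoda.1 (0.986), defbl1 (0.985), prtfdc1a (0.982) and PHLDB1 (0.977). pnp4a, a purine nucleoside phosphorylase gene used as an iridophore marker, averaged 1326 CPM in Cancer_High, 358 in PreC_High, 265 in Cancer_Low, 6.13 in PreC_Low and 1.44 in Control_Low. The genes most like MITF ENSDARG00000003732 were vamp5 (0.942), gsdmea (0.936), cmtm7 (0.933), TFEC (0.93) and SH3PXD2B (0.929). TFEC, of the same transcription factor family as MITF, averaged 394 CPM in Cancer_High, 257 in PreC_High, 115 in Cancer_Low, 9.78 in PreC_Low and 7.25 in Control_Low. MITF ENSDARG00000037833 had other nearest genes, adora3a.1 (0.893), HAS1 (0.893), adamts12 (0.873), ankmy1 (0.867) and bcl6ab (0.862). For TYR the 5 highest values were 0.678 to 0.781, and 4 of those genes averaged under 1 CPM in every group.

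Marker lists of other cells were read beside these values. The 12 IDs summed to 2048 to 3924 CPM in Cancer_High, 1393 to 2070 in PreC_High, 61.1 to 1557 in Cancer_Low, 18.6 to 35.6 in PreC_Low and 15.1 to 20.65 in Control_Low. GPNMB made up most of the sum in every Cancer and PreC library, but not in the Control_Low libraries. Iridophore markers summed to 3281 to 8891 CPM in Cancer_High, 2430 to 3138 in PreC_High, 232.7 to 2649 in Cancer_Low, 136 to 296 in PreC_Low and 142.7 to 174.8 in Control_Low. Of the 12 iridophore IDs, 8 were called higher and 0 lower in each High against Low comparison. The list includes the purine synthesis genes PAICS, ATIC and GART, and TFEC, which is also counted among the pigment cell transcription factors below. These 4 had the smallest adjusted p of the list in Cancer. In PreC those were TFEC, both ALX4 IDs and pnp4a. The 8 in Cancer are 5 without Cancer_Low replicate 1 or 3, and 4 to 9 in the alternatives other than leaving out 1 library. In Cancer_Low against Control_Low, 6 were called higher and 1 lower, and the lower count is 0 in some alternatives. The shares of all IDs tested called higher were 10.5% in Cancer_High against Cancer_Low and 9.28% in PreC_High against PreC_Low. In Cancer_Low against Control_Low they were 17.2% higher and 15.5% lower. The iridophore sums and the member sums were thus both above PreC_Low and Control_Low in both High groups, and both were highest in replicate 4 within Cancer_Low. The part of iridophores in the member values was not tested.

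Retinal pigment epithelium markers summed to 107.5, 84.1, 98.4 and 180.2 CPM in Cancer_High, 102, 127.5 and 94.99 in PreC_High, 49.7, 38.8, 41.45 and 161.7 in Cancer_Low, 85.3, 80.6 and 79.2 in PreC_Low and 75.9, 109 and 93.1 in Control_Low. Like the member sums, they were higher in the High fraction of every tissue and highest in replicate 4 within Cancer_Low, but the High groups overlapped Control_Low. Of 14 tested, 1 was called higher and 2 lower in Cancer_High against Cancer_Low, and 3 higher and 5 lower in PreC_High against PreC_Low, beside the shares of all IDs given above. Without Cancer_Low replicate 4, 5 are called higher in Cancer, without Cancer_High replicate 1 or 4 it is 2, and DESeq2 calls 4. The 2 lower in Cancer are 0 without Cancer_High replicate 4 or Cancer_Low replicate 1 or 2, and 1 without Cancer_High replicate 1 or 3 or Cancer_Low replicate 3. The 5 lower in PreC are 3 without PreC_High replicate 1 or 3 or PreC_Low replicate 2. In Cancer_Low against Control_Low, 1 was called higher and 5 lower, where 17.2% and 15.5% of all IDs tested were called. Leaving out single libraries gave 0 to 2 higher and 4 to 6 lower there. Against PreC_Low, 0 were called higher in Cancer_Low and 4 lower, beside 7.95% and 11.1% of all IDs tested.

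The markers of this list differed among themselves. rgrb, an opsin-like gene of the visual cycle, was called higher in the High fraction of both stages, by 3.36 ± 0.59 in Cancer (adjusted p = 0.000517) and 2.30 ± 0.65 in PreC (adjusted p = 0.0131). Between Low groups, rgrb was called lower in Cancer_Low than in Control_Low, by -2.54 ± 0.59 (adjusted p = 0.00371). TTR, a thyroxine and retinol carrier, averaged 2.26 CPM in Cancer_High, 3.43 in PreC_High, 0.423 in Cancer_Low, 0.0860 in PreC_Low and 0.0154 in Control_Low, and was called in PreC, by 5.29 ± 1.31 (adjusted p = 0.00588). BEST1, a chloride channel gene, averaged 34.5 CPM in Cancer_High, 47.98 in PreC_High, 9.54 in Cancer_Low, 7.95 in PreC_Low and 8.97 in Control_Low. OTX2 was called lower in the High fraction of both stages, by -4.0 ± 1.37 in Cancer (adjusted p = 0.0374) and -5.81 ± 1.65 in PreC (adjusted p = 0.0136). The other marker called lower in Cancer was mertka, by -1.15 ± 0.37 (adjusted p = 0.0281). RPE65 ENSDARG00000007480, listed under the symbol of the visual cycle isomerase, averaged 0.116 CPM in Cancer_High, 1.11 in PreC_High, 0.292 in Cancer_Low, 8.13 in PreC_Low and 6.61 in Control_Low. It was called lower in PreC_High than in PreC_Low, by -2.87 ± 0.8 (adjusted p = 0.0126). The 2 other IDs listed as RPE65 had a higher mean in the High group of each stage than in its Low group. ENSDARG00000054420 averaged 4.09 CPM in Cancer_High, 1.08 in PreC_High, 1.90 in Cancer_Low, 0.149 in PreC_Low and 0.220 in Control_Low. ENSDARG00000094752 averaged 4.00 CPM in Cancer_High, 1.28 in PreC_High, 3.53 in Cancer_Low, 1.14 in PreC_Low and 0.514 in Control_Low. LRAT was at 0 in 2 of 4 Cancer_High, 3 of 3 PreC_High, 3 of 4 Cancer_Low, 3 of 3 PreC_Low and 2 of 3 Control_Low libraries. The part of retinal pigment epithelium in the member values was not tested.

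Macrophage markers summed to less in the High than in the Low fraction of each stage, at 415 to 1175 CPM in Cancer_High, 236 to 350 in PreC_High, 3122 to 12350 in Cancer_Low, 1616 to 3446 in PreC_Low and 1152 to 1721 in Control_Low. Of 13 tested, 12 were called lower and 0 higher in each High against Low comparison, and 11 higher and 0 lower in Cancer_Low against Control_Low. The shares of all IDs tested were 17.9% lower in Cancer_High against Cancer_Low and 22.0% lower in PreC_High against PreC_Low. In Cancer_Low against Control_Low 17.2% were higher. Within Cancer_Low the macrophage sum was lowest, 3122 CPM, in replicate 4, where GPNMB was highest. Between groups, the macrophage sum and GPNMB were both higher in every Cancer_Low library than in any Control_Low library. The part of macrophages in the member values was not tested.

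Xanthophore markers, for the yellow pigment cells, summed to 38.0 to 107.9 CPM in Cancer_High, 47.7 to 54.5 in PreC_High, 24.9 to 41.4 in Cancer_Low, 36.0 to 42.9 in PreC_Low and 31.3 to 49.3 in Control_Low. None of the 9 was called by edgeR in these comparisons; at an unadjusted p under 0.05 there were 3 in Cancer_High against Cancer_Low and 1 in PreC_High against PreC_Low, and other settings, DESeq2 among them, called at most 2 in either. Fibroblast markers summed to 67.6 to 179.2 CPM in Cancer_High, 102.2 to 116.4 in PreC_High, 1128 to 7530 in Cancer_Low, 917.7 to 2547 in PreC_Low and 1664 to 2651 in Control_Low. Myelin glia markers summed to 75.7 to 274 CPM in Cancer_High, 4821 to 5685 in PreC_High, 75.1 to 155 in Cancer_Low, 240 to 418 in PreC_Low and 216 to 377 in Control_Low. The sox10-high fractions of the 2 stages thus differed in their glial markers, of which 8 of 10 were called lower in Cancer_High than in PreC_High, while GPNMB, GPR143 and pmela overlapped between them. Over all IDs tested, 5.24% were called lower in Cancer_High than in PreC_High.

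**Figure D5:**
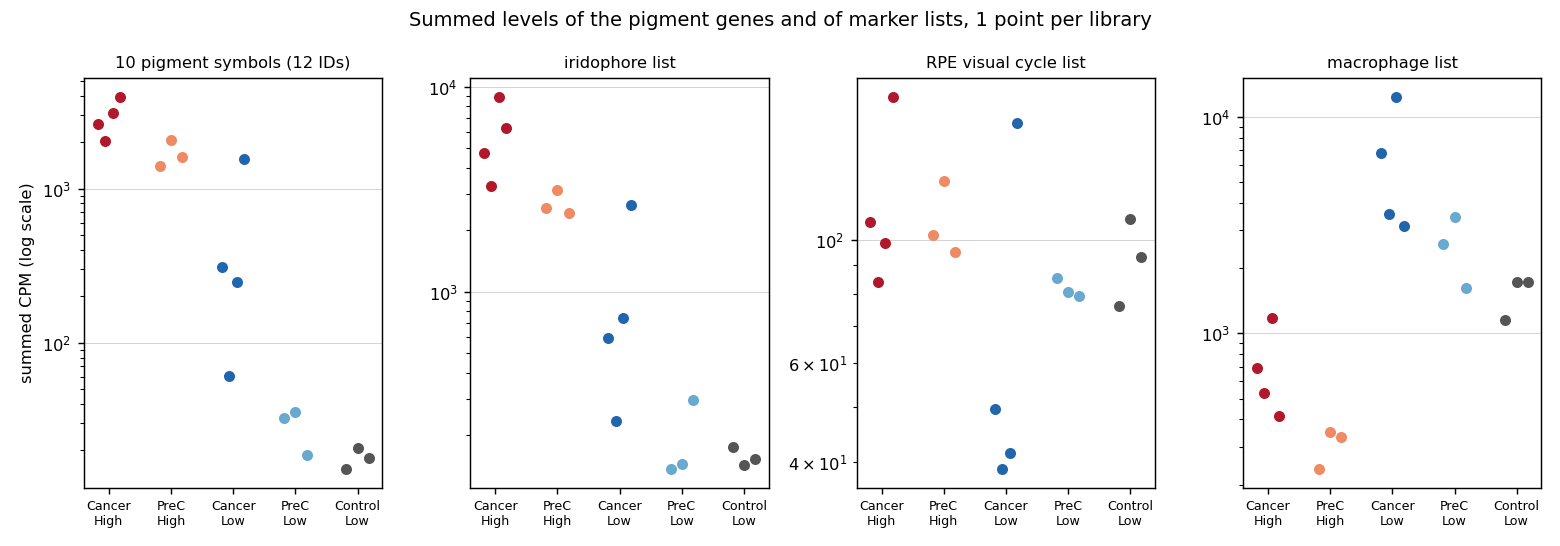
Summed CPM of the 12 IDs, of iridophore markers, of retinal pigment epithelium markers and of macrophage markers, 1 point per library on log axes. The member and iridophore sums have their highest medians in Cancer_High and PreC_High, and the macrophage sum is highest in Cancer_Low, at up to 12350 CPM.

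Genes that build the melanosome belong to a sorting machinery shared with lysosomes. Of 26 IDs, 12 were called higher and 0 lower in Cancer_High against Cancer_Low, with a median log2 fold change of 1.05 beside 0.07 over all IDs tested, and 16 higher and 0 lower in PreC_High against PreC_Low, with a median of 1.32 beside -0.15. The shares of all IDs tested were 10.5% higher and 17.9% lower in Cancer, and 9.28% higher and 22.0% lower in PreC. HPS3, a subunit of the sorting complex BLOC-2, averaged 179.7 ± 65.7 CPM in Cancer_High and 40.1 ± 22.6 in Cancer_Low (SD, n = 4 each), a log2 fold change of 2.17 ± 0.37 (adjusted p = 0.000398). In PreC it averaged 68.3 ± 13.1 CPM in PreC_High and 11.2 ± 1.82 in PreC_Low (SD, n = 3 each), with 2.61 ± 0.44 (adjusted p = 0.000319). DTNBP1, of the complex BLOC-1, was higher by 1.56 ± 0.27 in Cancer_High (adjusted p = 0.00047) and 1.85 ± 0.32 in PreC_High (adjusted p = 0.000385). bloc1s4, also of BLOC-1, was higher by 1.26 ± 0.31 (adjusted p = 0.00647) and 2.19 ± 0.37 (adjusted p = 0.000346).

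The same list had 21 IDs called higher and 0 lower in Cancer_Low against Control_Low, with a median of 1.61 beside 0.16 over all IDs tested, and 8 higher and 0 lower in Cancer_Low against PreC_Low, with a median of 1.04 beside 0.05. The shares of all IDs tested were 17.2% higher and 15.5% lower against Control_Low, and 7.95% higher and 11.1% lower against PreC_Low. VPS41, a tether of late endosomes and lysosomes, was higher by 1.48 ± 0.23 against Control_Low (adjusted p = 0.000157) and 1.33 ± 0.23 against PreC_Low (adjusted p = 0.000691). RAB32 ENSDARG00000029036, for a small GTPase that directs melanosome cargo, averaged 147.5 ± 103.5 CPM in Cancer_Low (SD, n = 4) and 27.0 ± 3.42 in Control_Low (SD, n = 3), with 2.45 ± 0.45 (adjusted p = 0.000601). Another ID listed as RAB32, ENSDARG00000041165, is in the same list, and its values are not given here. In PreC_Low against Control_Low edgeR called 0 of the 26, with 5 at an unadjusted p under 0.05, and DESeq2 called none. Over all IDs tested, edgeR called 1.07% in that comparison. The count of 12 in Cancer is 7 without Cancer_Low replicate 1, and the count of 16 in PreC is 10 without PreC_Low replicate 2. The count of 8 in Cancer_Low against PreC_Low is 5 without PreC_Low replicate 1 and 16 without PreC_Low replicate 3.

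Among genes that carry finished melanosomes along actin, the melanophilin gene MLPH was higher in the sox10-high cells of both stages, and both genes for the related linker MYRIP were lower in PreC_High. MLPH, the link between Rab27 and myosin, averaged 16.8 ± 10.4 CPM in Cancer_High and 1.28 ± 0.538 in Cancer_Low (SD, n = 4 each), with a log2 fold change of 3.71 ± 0.78 (adjusted p = 0.00222). It averaged 10.99 ± 5.17 CPM in PreC_High and 0.248 ± 0.313 in PreC_Low (SD, n = 3 each), with 5.47 ± 0.99 (adjusted p = 0.000626). mlphb was higher in PreC_High by 5.16 ± 1.23 (adjusted p = 0.00447), and myripa and myripb were lower there, by -4.26 ± 1.05 (adjusted p = 0.00559) and -3.99 ± 0.64 (adjusted p = 0.000218). Of the 9 transport IDs tested, 4 were called higher and 0 lower in Cancer_High against Cancer_Low, and 3 higher and 2 lower in PreC_High against PreC_Low. The shares of all IDs tested were 10.5% higher and 17.9% lower in Cancer, and 9.28% higher and 22.0% lower in PreC. In Cancer_Low, mlphb was higher than in Control_Low by 6.10 ± 1.27 (adjusted p = 0.00159), RAB27B by 2.08 ± 0.77 (adjusted p = 0.0467), and myripb was lower by -4.07 ± 0.57 (adjusted p = 6.05e-05). The Cancer_Low libraries were widely spread for the 2 higher genes, at 46.5 ± 72.4 CPM for mlphb and 22.7 ± 32.7 for RAB27B (SD, n = 4). The count of 4 in Cancer is 2 without any 1 of Cancer_High replicate 3 and Cancer_Low replicates 1, 2 and 3. In Cancer_Low against Control_Low, 2 of the 9 were called higher and 2 lower, the other lower one being myripa, by -3.38 ± 0.89 (adjusted p = 0.0083). Over all IDs tested, 17.2% were called higher and 15.5% lower in that comparison. The count of 2 higher there is 1 without Cancer_Low replicate 4 or any 1 Control_Low library.

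Other melanosome membrane proteins also serve lysosomes. Of 10 IDs, 0 were called higher and 5 lower in Cancer_High against Cancer_Low, and 1 higher and 5 lower in PreC_High against PreC_Low, where 17.9% and 22.0% of all IDs tested were called lower. The median log2 fold change of the list was -1.05 in Cancer, beside 0.07 over all IDs, and -1.59 in PreC, beside -0.15. CD63, a tetraspanin that sorts PMEL, averaged 167 ± 86.3 CPM in Cancer_High and 948 ± 494 in Cancer_Low (SD, n = 4 each), with -2.50 ± 0.39 (adjusted p = 0.000168), and was lower in PreC_High by -1.60 ± 0.44 (adjusted p = 0.0107). slc7a11, the cystine transporter that feeds pheomelanin synthesis in mammals, averaged 3.03 ± 1.997 CPM in Cancer_High and 106.5 ± 84.9 in Cancer_Low (SD, n = 4 each), with -5.13 ± 0.64 (adjusted p = 2.23e-05). In Cancer_Low against Control_Low, 5 were called higher and 1 lower, with CD63 at 2.52 ± 0.44 (adjusted p = 0.000366) and slc7a11 at 3.19 ± 0.66 (adjusted p = 0.00146). Over all IDs tested, 17.2% were called higher and 15.5% lower in that comparison. The macrophage sums given above moved the same way as CD63 and slc7a11 across these groups, and their part in these values was not tested.

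Transcription factors and receptors of pigment cells were called in both directions. Of 15 tested, 4 were called higher and 3 lower in Cancer_High against Cancer_Low, and 5 higher and 3 lower in PreC_High against PreC_Low, SOX10 and TFEC being among the higher ones in both. The SOX10 call was set by the sort on its reporter, and SOX10 is counted in these calls and in the list medians. Of all IDs tested, 10.5% were called higher and 17.9% lower in the Cancer comparison, and 9.28% higher and 22.0% lower in the PreC comparison, so the share of lower calls in the list was near that of all IDs. The median log2 fold change of the list was 1.64 in Cancer, beside 0.07 over all IDs, and 1.74 in PreC, beside -0.15. The 4 higher in Cancer are 2 without Cancer_Low replicate 1 or 3. TFEC was higher in Cancer_High by 1.78 ± 0.37 (adjusted p = 0.0019) and in PreC_High by 4.72 ± 0.48 (adjusted p = 7.75e-06), and the difference between these was -2.94 ± 0.56 (adjusted p = 0.00833). TRPM1, a channel gene of melanocytes and of retinal bipolar cells, was lower in PreC_High than in PreC_Low by -3.69 ± 0.56 (adjusted p = 0.000139) and lower in Cancer_Low than in Control_Low by -3.95 ± 0.50 (adjusted p = 2.61e-05). KIT, a growth factor receptor needed by melanocytes, was lower in Cancer_High than in Cancer_Low by -2.64 ± 0.63 (adjusted p = 0.00536). In Cancer_Low against Control_Low, 6 were called higher, TFEC by 3.99 ± 0.45 (adjusted p = 1.01e-05), and 3 lower, kitb by -4.15 ± 0.56 (adjusted p = 4.65e-05). Over all IDs tested, 17.2% were called higher and 15.5% lower in that comparison.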

How the data were processed

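The deposited file is a table of counts per gene, whole numbers for 31701 Ensembl IDs, which the authors made before deposit. Tools listed in the submitters' processing notes are STAR, HTSeq, FastQC and DESeq2, with danRer10 as the build; their versions, roles and strand setting are not stated there. Per the labels, ocular tissue was dissociated and sorted, and libraries were made with a directional kit from polyadenylated RNA. Totals are 58711787 to 87244522 counts. 1 age is typed with a letter O and was read as 5.0. Part of the mutant genotype is not reported here.

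The quasi-likelihood test of edgeR 4.0.16 (under R 4.3.3, with limma 3.58.1) was fitted to the 5 groups over all 17 libraries, after TMM scaling, with robust estimates (a median of 4.82 prior degrees of freedom) and filterByExpr (10 counts per library, 15 in total), which kept 23299 IDs. Called means a Benjamini-Hochberg adjusted p under 0.05 over all IDs tested. Each SE is the absolute log2 fold change divided by the square root of the F value of the quasi-likelihood test. The 95% intervals were built from this SE, are symmetric and are rough for genes with few counts. CPM use TMM-scaled totals, log2 CPM a prior count of 2. Symbols came from a reference table for 26237 IDs; reads shared between paralogs may be split, which was not analysed here. The pipeline was also run on simulated counts, with known fold changes put only into genes above a CPM limit. These counts were drawn without tissue pairs and without an excess of even counts. They therefore do not test the calls of members with few counts.

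The members and lists were chosen with earlier results of these data known. Named genes are the members, the 4 called genes with the smallest adjusted p per pathway list and comparison, of which part is printed, the 5 genes most alike to TYR, MITF and GPNMB, SOX10 and brca2. IDs without a symbol, or with a symbol that another ID shares, were left out of the search for alike genes. 5 symbols of the sorting list, 1 of the transport, 1 of the macrophage and 3 of the photoreceptor list matched no ID. Marker lists cover iridophores, xanthophores, retinal pigment epithelium, macrophages, myelin glia, photoreceptors and fibroblasts.

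Alternatives were RLE factors, no filter, CPM of at least 1 in 3 libraries, only the compared groups, a replicate block (the tissue for High against Low and the interaction, the bare number elsewhere), DESeq2 1.42.0, each library left out, and PreC_Low replicate 3 with Cancer_Low replicate 4 left out. High and Low libraries of 1 number share a tissue code in the labels, so they are pairs. Their residuals correlated at 0.306 to 0.426 in the 4 Cancer tissues and -0.009 to 0.075 in the 3 PreC tissues, against -0.251 to -0.034 and -0.075 to 0.058 between tissues. Between stages the numbers pair nothing.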

Additional observations from a re-analysis of the deposited data

Results flagged for a closer look

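In 6 of 24 sets of 4 libraries tested, 1 for each of the 12 IDs in each Cancer group, the highest library stood apart from the other 3 by more than Dixon's 95% limit. Chance flags about 1 in 20 groups only where values are independent and follow a normal distribution. Here the limit was applied to CPM without a log, and the 24 sets share the same libraries. The 6 flags are therefore no measure of an excess over chance. Cancer_Low replicate 4 stood apart for GPNMB, at 1504 CPM, and for SLC24A5, at 0.916 CPM. Cancer_High replicate 4 stood apart for TYR, at 1.07 CPM, and for MITF ENSDARG00000037833, at 8.57 CPM. Cancer_High replicate 2 stood apart for DCT, at 13.6 CPM, and Cancer_Low replicate 1 for TYRP1 ENSDARG00000056151, at 2.58 CPM.

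The difference between sox10-high and sox10-low cells of MITF ENSDARG00000003732 was smaller in Cancer than in PreC by a test of the difference itself, at -2.40 ± 0.62 on the log2 scale (adjusted p = 0.0408). The call is lost in 12 of 21 alternatives, with an adjusted p of 0.0519 to 0.109.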

How the results depend on the processing

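Of 18 calls of a member in a comparison, 11 were kept in every alternative: GPNMB and MITF ENSDARG00000003732 in all their comparisons but GPNMB in Cancer_High against Cancer_Low and MITF in the interaction, and every call of GPR143 and pmela. None of these 18 changed sign in an alternative. Leaving out single libraries gave 2 to 5 called members in Cancer_High against Cancer_Low, 0 to 1 in PreC_Low against Control_Low, 0 to 1 in Cancer_High against PreC_High and 0 to 2 in the interaction. In PreC_Low against Control_Low the count of 0 became 1 with the replicate block, with DESeq2 and without PreC_Low replicate 3 and Cancer_Low replicate 4. In Cancer_High against PreC_High the count of 1 became 0 with RLE factors, with only the compared groups and with the replicate block, and in the interaction it became 0 with only the compared groups, with the replicate block and without those 2 libraries, and 2 with DESeq2. The cause was not tested. Over all genes, calls in PreC_Low against Control_Low were 1408 with DESeq2, 866 with only the compared groups, 438 with the replicate block and 162 without those 2 libraries, beside 250, and 50 to 405 without single libraries. In Cancer_High against PreC_High they were 3906 with DESeq2 and 1388 with only the compared groups, beside 2364, and in the interaction 2131 with DESeq2, 475 with only the compared groups and 1388 without those 2 libraries, beside 792. Without PreC_Low replicate 1, calls in Cancer_Low against PreC_Low were 2859, beside 4440. The higher share of calls in PreC_Low against Control_Low was 72.4%, and 60.4% with DESeq2 and 52.2% with only the compared groups. With RLE factors the all-gene median was -0.02 on the log2 scale in PreC_Low against Control_Low, beside 0.09, and 0.04 in the interaction, beside 0.17. With the tissue as the replicate block SLC45A2 in PreC was gained, and TYRP1 ENSDARG00000056151 in PreC and MITF ENSDARG00000003732 in the interaction were lost. In comparisons between stages the block is the bare number, which pairs no samples, so its counts there support nothing. TYR, TYRP1 ENSDARG00000029204 and SLC24A5 each had at least 1 library at 0 counts.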
